A study of Mus musculus with 6 samples.

Results

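The 10 genes described here mark the primitive streak and the mesoderm that leaves it: T (brachyury), Mixl1, Eomes, Gsc, Evx1, Wnt3, Lhx1, Mesp1, Kdr and Tbx6. They were taken by gene symbol from a table of 22332 symbols, all 10 were found, and all 10 passed the filter on low counts that left 15084 genes to test. The table covers 6 RNA libraries of CGR8, an established mouse embryonic stem cell line, grown on gelatin in DMEM with 10% fetal bovine serum and LIF, the cytokine that holds such cells in the pluripotent state. In 3 libraries (siCtrl) the cells had been transfected with a pool of non-targeting siRNAs, and in 3 (siRSL24D1) with a pool against Rsl24d1, whose protein helps to build the large subunit of the ribosome. RNA was taken 48 hours after transfection and ribosomal RNA was depleted. All cells were therefore transfected, from a single cell line, and the 3 libraries of a group are independent replicates per the series' design text.

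In the mouse embryo the primitive streak forms on the posterior side of the epiblast, where Wnt3, Nodal and BMP signals meet. T, Eomes and Mixl1 are switched on there, Gsc and Lhx1 mark its anterior end, Evx1 its posterior part, and Mesp1, Tbx6 and Kdr the mesoderm that emerges from it. Embryonic stem cells kept in serum and LIF are a mixed culture in which some cells are known to transcribe such genes at low level without leaving the pluripotent state.

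Of the 10 markers, 6 rose in siRSL24D1 and 0 fell (edgeR, adjusted p under 0.05), against 21.2% and 20.0% of all genes tested that rose and fell and 41.2% with a call in either direction. DESeq2 and limma also found 6 and 0, and 0 of the 10 were lower at an unadjusted p under 0.05. The 6 were Mixl1 (2.28-fold), Kdr (2.11-fold), Wnt3 (1.89-fold), Evx1 (1.73-fold), Eomes (1.35-fold) and T (1.29-fold). Gsc, Lhx1, Mesp1 and Tbx6 did not pass. The median log2 fold change of the 10 was 0.40, and that of all genes tested was 0.02. Lists of other cell types, described below, had like medians: 0.51 for neuroectoderm, 0.43 for trophoblast, 0.35 for endoderm and 0.34 for fibroblast markers. That of stem cell markers was 0.003. A median of this size was thus not particular to the 10 markers. The 10 genes and all lists were chosen with earlier results of these data known, so their counts and medians are descriptive. The same 6 had groups that did not overlap, with every siRSL24D1 library above every siCtrl library, a pattern shown by 26.8% of all genes tested. Mixl1 and Kdr were at least 2-fold higher, as were, with a call, 2.33% of all genes tested. In bulk RNA a larger number of cells that transcribe a gene and more RNA per cell cannot be told apart.

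**Figure D1:**
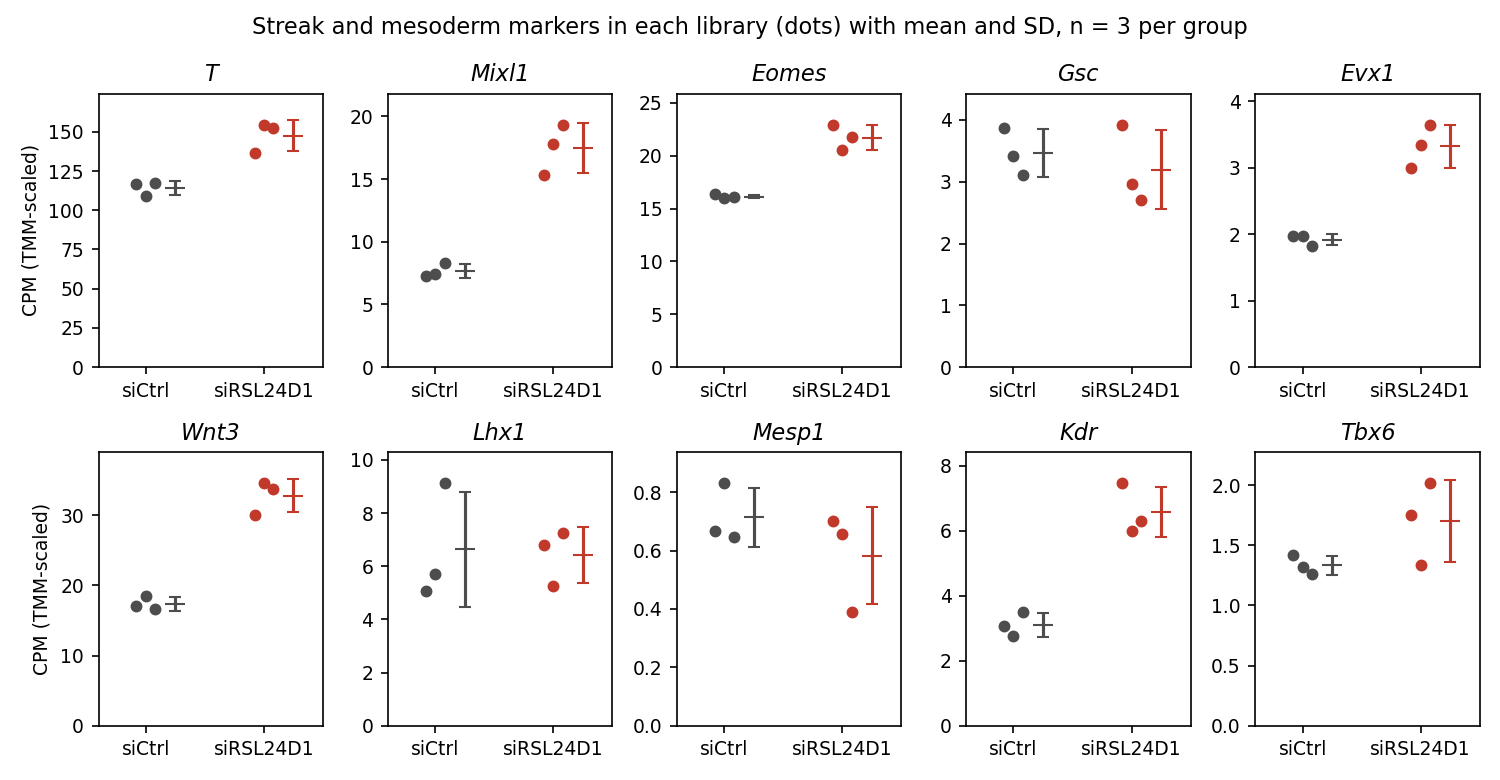
Level of each of the 10 markers in CPM (counts scaled to a common library size by TMM, vertical axes from 0) in the 3 siCtrl (grey) and 3 siRSL24D1 (red) libraries, with mean and SD beside the dots. For T, Mixl1, Eomes, Evx1, Wnt3 and Kdr all red dots lie above all grey dots, while the groups overlap for Gsc, Lhx1, Mesp1 and Tbx6.

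**Figure D2:**
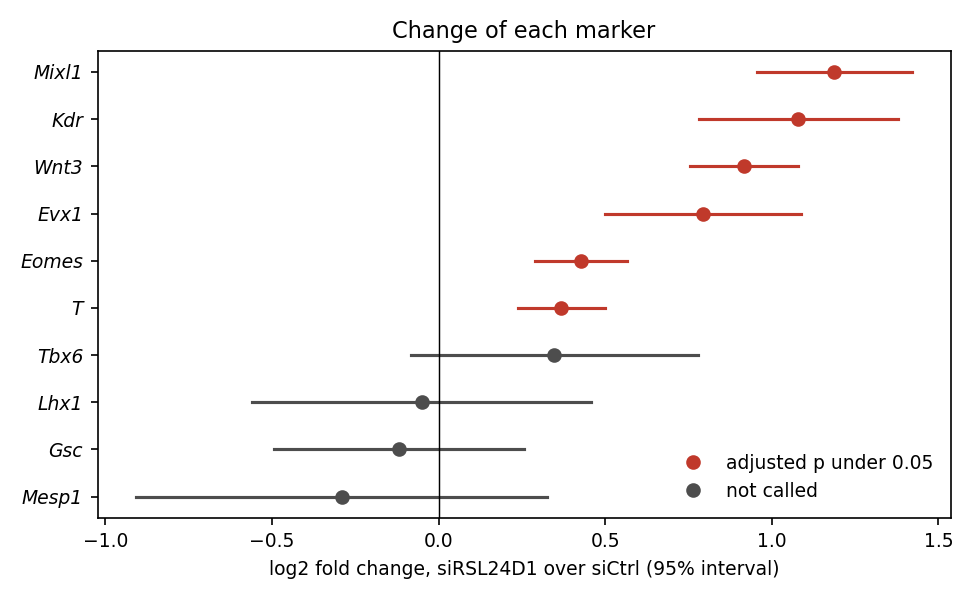
Log2 fold change of each marker, siRSL24D1 over siCtrl, with its 95% interval from the edgeR fit. The intervals of the 6 markers with a call (red) lie wholly above 0, and those of the 4 others (grey) include 0.

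A library held between 30943635 and 35214000 estimated counts. At this depth the members ranged from 71 counts over the siCtrl libraries for Mesp1 to 11417 for T. Rsl24d1 itself, the targeted gene, measured 100.004 ± 2.44 CPM (SD, n = 3, as for all values with ±) under siCtrl; in siRSL24D1 it fell to 53.8 ± 1.74 CPM, 0.538 of the control level (adjusted p = 2.02e-05). Stem cell identity is given by the labels and was not checked against reference levels. Passing the filter on low counts is no check of it, since 15 of 18 endoderm and 15 of 16 fibroblast markers also passed. All 20 listed markers of embryonic stem cells were measured and tested. Between the groups 8 of them fell and 4 rose, against 20.0% and 21.2% of all genes tested. Nanog, a core factor known to restrain differentiation, fell from 247 ± 11.2 to 176 ± 6.44 CPM (adjusted p = 0.000188), while Pou5f1, at 482 ± 37.9 and 482 ± 28.6 CPM, and Sox2, at 121 ± 1.33 and 128 ± 2.39 CPM, did not pass. In each group 1 library stood somewhat apart. The chi-square per degree of freedom over genes was 17.8 and 13.5 between siCtrl 3 and the other controls, against 2.62 between those, and 11.6 and 14.2 between siRSL24D1 2 and the other siRSL24D1 libraries, against 4.0 between those. All 6 calls among the markers held without either library. The departures were related across the groups. Deviations of siCtrl 3 from its group mean correlated at 0.436 and 0.358 with siRSL24D1 1 and siRSL24D1 3, and at -0.662 with siRSL24D1 2. Those of siRSL24D1 2 correlated at 0.622 and 0.347 with siCtrl 1 and siCtrl 2. This split of the libraries is unequal between the groups, so its effect cannot be fully told apart from that of the siRNA. Its source was not tested. No library pair was alike within sampling noise.

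For a ranking of the markers, levels were divided by transcript length (CPM per kilobase). In siCtrl, T stood far above the rest at 55.9 ± 2.15 CPM per kilobase. Wnt3 followed at 5.65 ± 0.31, Eomes at 4.53 ± 0.05, Mixl1 at 3.34 ± 0.25, Gsc at 2.73 ± 0.30 and Lhx1 at 1.73 ± 0.56. The lowest 4 were Tbx6 at 0.77 ± 0.05, Evx1 at 0.67 ± 0.03, Mesp1 at 0.56 ± 0.08 and Kdr at 0.52 ± 0.06. The library ranges of Evx1 and Mesp1 overlapped, as did those of Mesp1 and Kdr, while the ranges of all other neighbours in this order were apart. In siRSL24D1 the order changed in the middle and at the end: Mixl1, at 7.62 ± 0.87, was above Eomes, at 6.10 ± 0.34, and Evx1 and Kdr, at 1.16 ± 0.11 and 1.11 ± 0.13, had higher means than Tbx6, at 0.99 ± 0.20. The ranges of Evx1 and Kdr and those of Kdr and Tbx6 overlapped there, and Mesp1, at 0.46 ± 0.13, was the lowest.

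Wnt3 is the secreted signal of the set and is needed for the streak to form. It measured 17.1, 18.4 and 16.6 CPM in the siCtrl libraries, against 30.1, 34.5 and 33.7 CPM after siRSL24D1. The 3 siRSL24D1 libraries lay close together and well above the controls. Their log2 fold change came to 0.92 (standard error 0.07, edgeR adjusted p = 6.56e-05).

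Among the T-box transcription factors, T is the defining gene of the streak and notochord, Eomes acts with Nodal signals in mesendoderm, and Tbx6 sets paraxial mesoderm apart from neural tissue. T measured 117, 109 and 117 CPM in the siCtrl libraries, against 136, 154 and 152 CPM after siRSL24D1, a log2 fold change of 0.37 (standard error 0.06, adjusted p = 0.00153). The lowest siRSL24D1 value, in siRSL24D1 1, was still above all controls. Eomes measured 16.3, 16.0 and 16.1 CPM in the siCtrl libraries, against 22.9, 20.5 and 21.7 CPM after siRSL24D1, a change of 0.43 (standard error 0.06, adjusted p = 0.000954). Its control libraries were nearly equal, with a coefficient of variation of 1.08%. Eomes overlaps an annotated antisense gene, Gm33460, and since the strand setting of the counting is not given in the sources used here, reads of the pair cannot be told apart. Tbx6 measured 1.42, 1.32 and 1.26 CPM in the siCtrl libraries, against 1.75, 1.34 and 2.02 CPM after siRSL24D1. siRSL24D1 2 lay within the control range, and the log2 difference of 0.35 had a 95% interval from -0.08 to 0.78 (adjusted p = 0.172), so that anything from a fall to 0.944 of the control level to a 1.72-fold rise lay within it.

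The 4 homeobox genes split into 2 that rose and 2 that did not pass. Mixl1, a paired-class homeobox gene of the streak, measured 7.23, 7.47 and 8.32 CPM in the siCtrl libraries, against 15.4, 17.8 and 19.3 CPM after siRSL24D1. Every siRSL24D1 library had more than 1.8 times the level of the highest control, with a log2 fold change of 1.19 (standard error 0.10, adjusted p = 0.000104). Of all genes tested, 1.65% had a higher log2 fold change than Mixl1. Evx1, a homeobox gene of the posterior streak, measured 1.97, 1.97 and 1.82 CPM in the siCtrl libraries, against 2.99, 3.33 and 3.64 CPM after siRSL24D1. Its groups were clearly apart despite the low level, with a change of 0.79 (standard error 0.13, adjusted p = 0.00188). The antisense gene Evx1os overlaps Evx1, with the same limit as for Eomes.

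Gsc (goosecoid), also paired-class and a marker of the anterior streak and organizer, measured 3.87, 3.41 and 3.11 CPM in the siCtrl libraries, against 3.92, 2.96 and 2.71 CPM after siRSL24D1. The range of the siRSL24D1 libraries enclosed that of the controls, and the log2 difference was -0.12, with a 95% interval from -0.49 to 0.26 (adjusted p = 0.592). Lhx1, a LIM homeobox gene of the anterior streak and head organizer, measured 5.08, 5.72 and 9.11 CPM in the siCtrl libraries, against 6.79, 5.24 and 7.25 CPM after siRSL24D1. The controls alone spanned all siRSL24D1 values, and siCtrl 3 was the highest of the 6 libraries. The log2 difference was -0.05 (95% interval from -0.56 to 0.46, adjusted p = 0.876), and it turned to 0.24 (adjusted p = 0.242) without siCtrl 3 and to 0.08 (adjusted p = 0.812) without siRSL24D1 2.

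Mesp1, a basic helix-loop-helix factor of nascent and cardiac mesoderm, was the lowest member in CPM: 0.665, 0.830 and 0.645 CPM in the siCtrl libraries, against 0.701, 0.656 and 0.391 CPM after siRSL24D1. It rested on 71 and 58 counts over the 3 libraries of each group. The log2 difference was -0.29, with a 95% interval from -0.91 to 0.33 (adjusted p = 0.418), so a 1.25-fold rise and a fall to 0.533 of the control level were both within what this depth allows. Its neighbour and relative Mesp2, which acts in somite formation, was at 1.14 ± 0.06 and 1.07 ± 0.03 CPM, a difference of -0.09 (adjusted p = 0.725).

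Kdr encodes VEGF receptor 2, which is expressed by the mesoderm that forms blood and vessels. It measured 3.06, 2.77 and 3.49 CPM in the siCtrl libraries, against 7.45, 5.99 and 6.29 CPM after siRSL24D1. All siRSL24D1 libraries lay above the controls, with a log2 fold change of 1.08 (standard error 0.13, adjusted p = 0.000457).

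Since T itself rose, the counts of each other marker were also set against those of T in the same library, a ratio that does not depend on how libraries are scaled. Mixl1 counts were 6.20%, 6.83% and 7.10% of T counts in siCtrl and 11.3%, 11.5% and 12.7% in siRSL24D1. Wnt3 counts were 14.6%, 16.9% and 14.2% of T counts in siCtrl and 22.1%, 22.4% and 22.1% in siRSL24D1. Both were thus higher relative to T in every siRSL24D1 library than in any control. The change of such a ratio restates the marker's fold change set against that of T, which rose least among the markers with a call. It is therefore no separate evidence of a rise. Evx1 was at 1.55% to 1.80% of T in siCtrl and 2.16% to 2.39% in siRSL24D1, and Kdr at 2.53% to 2.97% and 3.88% to 5.47%, again without overlap. For Eomes the ratio was 13.7% to 14.6% in siCtrl and 13.3% to 16.8% in siRSL24D1, so the groups overlapped. Mesp1 was the only member whose ratio was lower in all siRSL24D1 libraries, at 0.55% to 0.76% against 0.26% to 0.51%. Its counts were 22, 27 and 22 in siCtrl and 22, 23 and 13 in siRSL24D1, and its CPM groups overlapped. With 22 counts in both siCtrl 3 and siRSL24D1 1, the ratios of these libraries differ only through their T counts (4002 and 4278). Of the 9 ratios, 4 were higher and 1 lower without overlap between the groups. On the CPM scale, 26.8% of all genes tested were higher and 26.2% lower without overlap. The share of all genes whose ratio to T separated the groups was not computed. Each of the 4 and 1 had a two-sided exact permutation p of 0.1 (0.18 after adjustment over the 9). That is the smallest p that 3 against 3 libraries can give, so this test cannot pass 0.05.

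**Figure D3:**
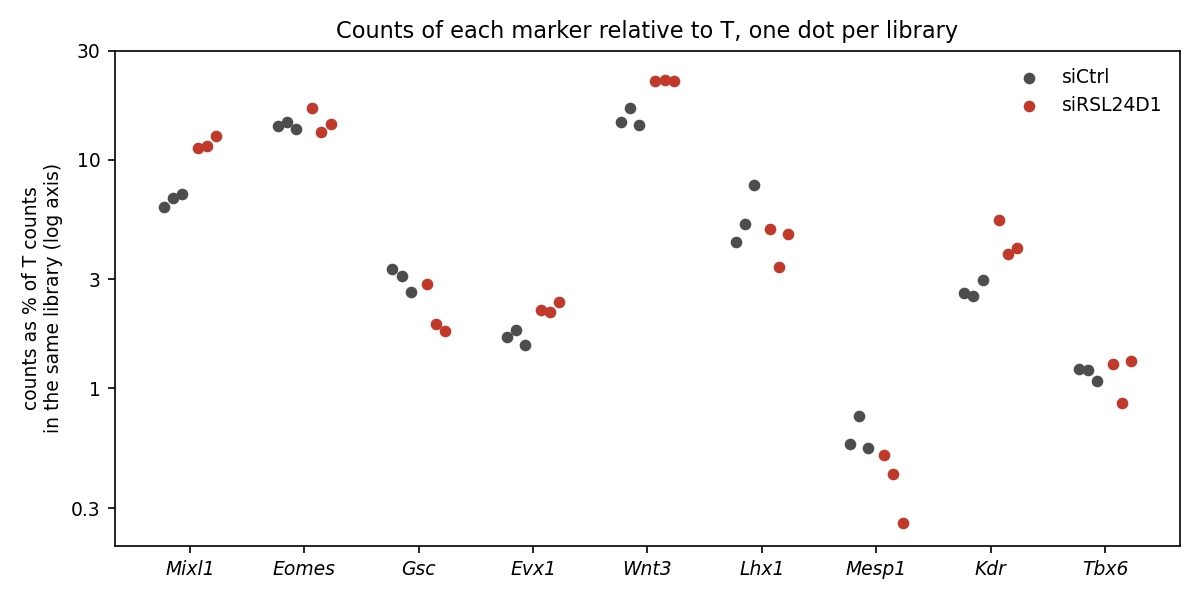
Counts of 9 markers as a percentage of T counts in the same library (log axis), 1 dot per library, siCtrl in grey and siRSL24D1 in red. Mixl1, Wnt3, Evx1 and Kdr are higher relative to T in all siRSL24D1 libraries, and the groups overlap for Eomes, Gsc, Lhx1 and Tbx6. Mesp1, whose own CPM groups overlap, is lower relative to T.

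Promoter sequence was looked at because 6 markers moved in the same direction. The RefSeq promoter table (GRCm38.p6) held 9 of the 10 members, all but Mixl1. The 250 bases before the RefSeq start were searched on both strands, in the members and in all 32841 promoters of the table. In GENCODE M21, Mesp1 (minus strand) ends at chr7:79793788, so most of its window (chr7:79793591-79793840), with both of its TCF/LEF words, lies within that gene. The windows of Gsc, Wnt3, Kdr and Lhx1 overlap their GENCODE genes to a lesser extent. TCF/LEF words, the type of site bound by the nuclear effectors of Wnt signals (CTTTGAA as well as CTTTGAT, and further CTTTGTA as well as CTTTGTT), were present in 2 of 9 members, T and Mesp1, and in 14.8% of all promoters. A paired homeodomain dimer word (TAAT and, after 3 bases of any kind, ATTA), of the kind bound by Mixl1 and Gsc proteins, was present in 1 member, Eomes, and in 0.463% of all promoters. The T-box word AGGTGTGA was found in 0 of 9 and in 1.12% of all, the Foxh1 word TGTNNATT in 0 of 9 and in 10.9%, and the TATA word TATAAA in 2 of 9, Gsc and Tbx6, and in 12.4%. The T and Eomes promoters are shown because both genes rose and each holds a word tied to the streak programme, written 5′ to 3′ on the gene's strand with that word in capitals. In T (chr17:8434173-8434422, plus strand) it begins 235 bases before the start and reads as the reverse complement of CTTTGAA, and in Eomes (chr9:118477939-118478188, plus strand) the dimer word begins 111 bases before the start. A match describes letters only and shows no binding.
T: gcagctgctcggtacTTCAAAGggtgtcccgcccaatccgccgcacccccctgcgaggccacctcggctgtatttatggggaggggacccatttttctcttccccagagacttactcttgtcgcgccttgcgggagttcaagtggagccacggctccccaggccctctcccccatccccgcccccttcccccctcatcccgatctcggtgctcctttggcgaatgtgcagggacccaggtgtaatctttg
Eomes: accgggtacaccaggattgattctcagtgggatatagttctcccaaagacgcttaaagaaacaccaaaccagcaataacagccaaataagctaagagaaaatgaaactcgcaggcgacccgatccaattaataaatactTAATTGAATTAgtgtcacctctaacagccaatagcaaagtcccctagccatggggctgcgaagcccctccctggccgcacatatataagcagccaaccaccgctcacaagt

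The CpG content of these windows could not be read for Mixl1, the member with the largest rise, which had no promoter in the table. The observed over expected CpG ratio was 0.59 for T, 0.62 for Eomes, 0.68 for Evx1 and Kdr and 0.77 for Wnt3, which rose, against a median of 0.37 over all promoters. Among those that did not pass, Gsc and Lhx1 were higher still, at 1.06 and 0.99, and Tbx6 and Mesp1 were lower, at 0.28 and 0.11. The members that rose thus lay between those that did not pass. A relation between CpG content and change was not tested.

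The genomic neighbourhood was examined through the nearest tested protein-coding gene on each side of each member (GENCODE M21, GRCm38), 20 genes in all. Of these, 5 rose and 5 fell, with a median log2 fold change of 0.01. Both counts are near the shares over all genes tested, 21.2% and 20.0%, so the single calls below are given for description only. Lin9 and Acbd3, on either side of Mixl1 (chr1:180693043-180697034), had log2 differences of -0.00 and 0.07 (adjusted p = 0.996 and 0.328), while Mixl1 itself was at 1.19. Kit, a receptor tyrosine kinase gene 276 kb from Kdr (chr5:75932827-75978458), fell from 63.3 ± 3.06 to 35.8 ± 4.34 CPM (adjusted p = 0.000232), and the gene on the other side, Srd5a3, was at 0.02 (adjusted p = 0.848). Neither Mixl1 nor Kdr thus had an adjacent tested gene that rose.

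Around Wnt3 (chr11:103774150-103817957), the vesicle fusion gene Nsf, 3.83 kb away, rose from 84.7 ± 0.63 to 105.2 ± 2.93 CPM (adjusted p = 0.000558). Wnt9b, on the other side, rose by 0.89 on the log2 scale at a level below 1 CPM (adjusted p = 0.045), a call lost in 5 of the 6 runs that leave out a library (adjusted p = 0.0654 to 0.149), with siCtrl 1 the library that could be left out without losing it. The call of Wnt9b was also lost in DESeq2 (adjusted p = 0.109), with upper-quartile scaling (0.0504) and with no filter on low counts (0.0547). Beside Evx1 (chr6:52313498-52318378), which lies beside the Hoxa cluster, Hoxa7 rose from 0.17 ± 0.05 to 0.69 ± 0.13 CPM and Hibadh fell by 0.55. Next to T (chr17:8434423-8442496), Pde10a rose by 0.52 (adjusted p = 0.00297), and T2 was at -0.37 (adjusted p = 0.335). Wdr93, 6.29 kb from Mesp1 (chr7:79792241-79793788), fell by 1.05 (adjusted p = 0.0171), a call lost without siCtrl 2 (adjusted p = 0.0546), and Ypel3, 0.97 kb from Tbx6 (chr7:126781483-126785560), fell by 0.44 (adjusted p = 0.00115).

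Around Lhx1 (chr11:84518284-84525535), Aatf rose by 0.19 (adjusted p = 0.0213), a call lost without siCtrl 2 (adjusted p = 0.0881), and Mrm1 fell by 0.43 (adjusted p = 0.000774), while Lhx1 did not pass. Neither neighbour of Eomes (chr9:118478212-118486132), Cmc1 at -0.09 and Golga4 at 0.02, passed. The same held for the neighbours of Gsc (chr12:104471209-104473330), Serpina3i at -0.36 and Dicer1 at 0.15, and for Ppp4c beside Tbx6, at 0.15 (adjusted p = 0.0507).

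**Figure D4:**
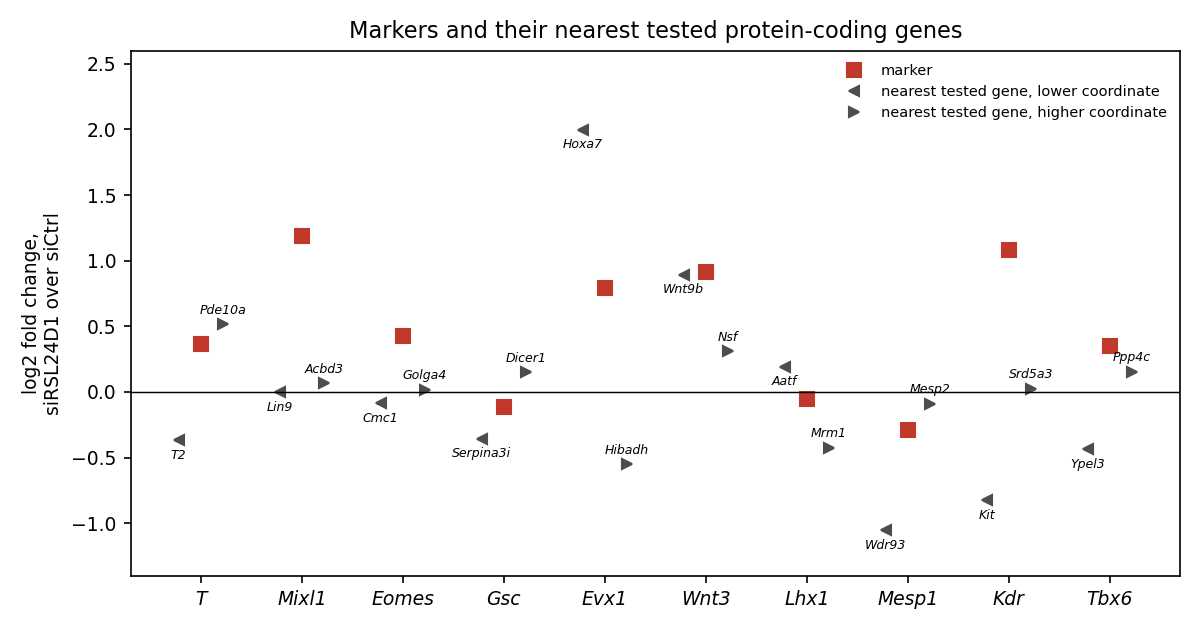
Log2 fold change (siRSL24D1 over siCtrl) of each marker (red squares) and of the nearest tested protein-coding gene at lower and higher coordinates (grey triangles, named). Mixl1 and Kdr stand above both of their neighbours, while both neighbours of Wnt3 are above 0, Nsf at 0.31 and Wnt9b at 0.89, the latter a call lost in 5 of the 6 runs without 1 library and in DESeq2.

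A list of 51 other streak and mesoderm genes was mixed. Its counts, like those of the lists below, stand beside the 21.2% and 20.0% of all genes tested that rose and fell. The lists share genes, so their counts are not independent of each other. Of 47 tested, 19 rose and 8 fell, with a median of 0.30; Evx2, Lhx2, Meox2 and Osr1 did not pass the filter on low counts. The largest rises were those of Nkx1-2, a homeobox gene of the caudal epiblast (from 2.99 ± 0.18 to 13.2 ± 1.64 CPM), Cdx2, a caudal homeobox gene that also marks trophectoderm (from 1.69 ± 0.08 to 5.09 ± 0.36 CPM), and Tal1, a blood transcription factor (from 0.45 ± 0.07 to 1.01 ± 0.17 CPM). Msgn1, a paraxial mesoderm factor chosen after its value was seen, rose 1.60-fold while Tbx6 did not pass. That rise lies within the 95% interval of Tbx6 (0.944 to 1.72-fold), and these genes were not compared with each other. The largest falls were those of Cer1, a secreted antagonist of Nodal and Wnt (from 5.62 ± 0.93 to 2.73 ± 0.29 CPM), Fgf17 (from 19.1 ± 0.23 to 11.1 ± 0.64 CPM) and Apela, a ligand of the apelin receptor (from 54.2 ± 3.78 to 37.4 ± 1.68 CPM). The number that fell was 5 without siCtrl 2, without siRSL24D1 2 or without siRSL24D1 3.

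The signals that induce the streak moved in both directions. Of 21 tested ligands, co-factors and antagonists, 7 rose and 6 fell (21.2% and 20.0% of all genes tested), with a median of -0.01. Wnt5a rose from 10.5 ± 0.90 to 19.0 ± 2.16 CPM, Nodal, the TGF-beta family ligand of the streak, from 64.5 ± 1.17 to 88.6 ± 7.28 CPM, and Wnt8a from 21.8 ± 0.54 to 26.8 ± 1.22 CPM. Beside Cer1, the largest falls were those of Fgf5, an FGF of the primed epiblast, at -0.68, and Sfrp1, a secreted Wnt antagonist, at -0.64. Wnt3a, the close relative of Wnt3, was at 0.98 ± 0.03 and 1.31 ± 0.27 CPM and did not pass (log2 difference 0.42, 95% interval from -0.03 to 0.87). The number that rose was 4 without siCtrl 2. Wnt5a, Wnt8a, Nodal, Dkk1 and Rspo3, which rose, and Cer1 and Fgf8, which fell, are also among the other streak and mesoderm genes. Of 23 tested receptors and transducers, 8 rose and 3 fell (median 0.07). Among them Fzd1, a Wnt receptor, rose by 0.85, Smad1, a BMP effector, by 0.41, and Lef1, a nuclear partner of beta-catenin, by 0.69, while Fzd2 and Fzd7 both fell by 0.35 and Acvr1b, a Nodal and activin receptor, by 0.19. The call of Lef1 rested on siCtrl 1, siCtrl 2, siRSL24D1 1 and siRSL24D1 3 (without any of them, adjusted p = 0.0784 to 0.0992), and that of Acvr1b ended without siCtrl 2, siRSL24D1 2 or siRSL24D1 3 (adjusted p = 0.053 to 0.0665). The number of this list that rose was 5 without siCtrl 1, siCtrl 2 or siRSL24D1 1 and 4 without siRSL24D1 3.

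Of 12 tested genes that canonical Wnt signals are known to induce, 7 rose and 0 fell (edgeR), with a median of 0.41. This list too was chosen with earlier results of these data known, so its counts describe and do not test Wnt activity. Sp5, Sp8, Cdx1 and Cdx4 are also among the other streak and mesoderm genes. Of all genes tested, 21.2% rose and 20.0% fell. DESeq2 called 6 higher and 0 lower, limma 7 and 0, and 0 were lower at an unadjusted p under 0.05. The gene that DESeq2 did not call was Nkd1, a feedback inhibitor named after its values were seen, which rose by 0.27 (adjusted p = 0.0359 by edgeR and 0.158 by DESeq2) and lost its call in every run without 1 library other than siRSL24D1 2 (adjusted p = 0.0535 to 0.117). Lgr5, a receptor of R-spondins, rose from 0.54 ± 0.07 to 1.17 ± 0.19 CPM, Sp8, a zinc finger factor, from 2.08 ± 0.34 to 3.75 ± 0.21 CPM, and its relative Sp5 from 9.44 ± 1.67 to 14.97 ± 2.28 CPM. Axin2, the feedback inhibitor most often used as a readout of this pathway, measured 32.5, 34.4 and 42.3 CPM in the siCtrl libraries, against 54.1, 48.6 and 58.7 CPM after siRSL24D1 (adjusted p = 0.00375); it was named after its values were seen. As for Wnt3, no siRSL24D1 library of Axin2 overlapped the controls. The 5 genes of the list without a call by edgeR were Nkd2 (log2 difference 0.01, adjusted p = 0.969), Rnf43 (-0.08, 0.668), Znrf3 (0.09, 0.609), Cdx1 (0.41, 0.256) and Cdx4 (-0.44, 0.428).

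**Figure D5:**
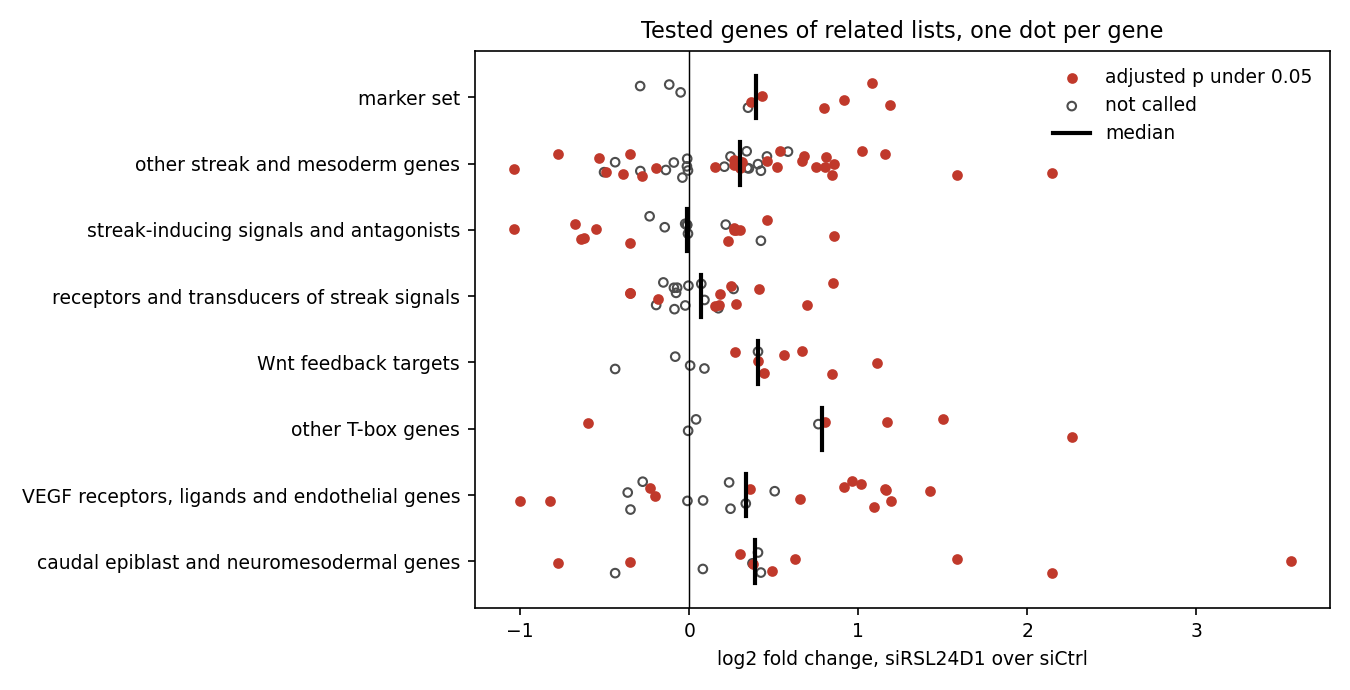
Log2 fold change (siRSL24D1 over siCtrl) of the tested genes in the marker set and in related lists, 1 dot per gene, filled red where the adjusted p was under 0.05, with the median as a black bar. The marker set has 6 red dots, all above 0, whereas the streak-inducing signals lie on both sides of 0 with a median of -0.01. Lists of other cell types are not drawn.

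Relatives of the members within their gene families also differed in direction. Of 14 other T-box genes, 8 were tested, 4 rose and 1, Tbx20, fell (from 16.9 ± 0.48 to 11.2 ± 1.67 CPM). The median log2 fold change of the 8 was 0.78. Tbx4, a limb and allantois factor, rose from 0.68 ± 0.11 to 3.29 ± 0.16 CPM, Tbx15 from 0.48 ± 0.20 to 1.36 ± 0.33 CPM and Tbx2 from 0.63 ± 0.26 to 1.42 ± 0.17 CPM. Tbx3, the T-box gene best known from the naive stem cell state and the other gene that rose, was at 6.07 ± 0.50 and 10.6 ± 1.81 CPM. Of 27 relatives of the homeobox members and their LIM cofactors, 17 were tested, 3 rose and 2 fell. Both homeobox counts were below the shares of all genes tested that rose and fell, 21.2% and 20.0%. Alx4 rose by 1.10, the LIM-complex gene Ssbp3 by 0.40 and Prrx1 by 0.75, the last a call lost without siCtrl 1, siCtrl 2, siCtrl 3 or siRSL24D1 1 (adjusted p = 0.058 to 0.105). Hesx1, a repressor of anterior ectoderm, fell by 1.72 from 0.70 ± 0.12 CPM, and Otx2, a factor of the anterior and primed epiblast, from 24.3 ± 0.60 to 17.3 ± 0.51 CPM.

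Kdr was read beside 26 genes of the VEGF pathway and of endothelial and blood precursors. Of 23 tested, 10 rose and 4 fell (21.2% and 20.0% of all genes tested), with a median of 0.33. Nrp1, a VEGF co-receptor, rose from 9.46 ± 0.90 to 25.4 ± 1.02 CPM, Eng, a TGF-beta co-receptor of endothelium, from 7.86 ± 1.41 to 18.0 ± 1.08 CPM, and Runx1, a factor of blood formation, from 5.63 ± 1.20 to 12.7 ± 1.09 CPM. Vegfa, the main ligand of Kdr, fell from 25.6 ± 0.66 to 12.8 ± 1.55 CPM (adjusted p = 0.000101), and Flt1, the other receptor of Vegfa, from 29.5 ± 3.18 to 25.1 ± 0.83 CPM (adjusted p = 0.0452), a call lost in 5 of the 6 runs that leave out a library (adjusted p = 0.0707 to 0.107), the exception being siCtrl 1, and with scaling by library totals (0.0766). Kit, given above as the neighbour of Kdr, is also on this list and fell. Kdr and Vegfa thus changed in opposite directions. The number of this list that fell was 2 without siCtrl 2 or siRSL24D1 1.

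Among 15 genes of the caudal epiblast and of neuromesodermal progenitors, cells that express T together with Sox2, 14 were tested, 7 rose and 2, Fgf17 and Fgf8, fell. Nkx1-2, Cdx1, Cdx2, Cdx4, Wnt8a, Wnt3a and both genes that fell were already counted among the other streak and mesoderm genes. Hoxb9 had the largest rise, from 0.15 ± 0.03 to 1.81 ± 0.11 CPM, followed by Nkx1-2 and Cdx2. Sox2 was at 0.08 on the log2 scale (adjusted p = 0.113).

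Markers of cell types other than mesoderm moved in the same libraries, in which 21.2% of all genes tested rose and 20.0% fell. Of 15 tested endoderm markers 5 rose, with Foxa1, Col4a1 and Col4a2 first at 1.17, 0.75 and 0.68 on the log2 scale, and 2 fell, Dab2 at -0.43 and Pdgfra at -0.20. The summed level of the list was 768 to 772 CPM in siCtrl and 911 to 1010 CPM in siRSL24D1. Such sums are of CPM not divided by length, and the most abundant genes of a list weigh most in them. Of 9 tested neuroectoderm markers 5 rose, led by Zic1, Neurod1 and Tubb3 at 2.34, 1.58 and 1.08, and Elavl3 fell, at -0.50 (summed level 260 to 271 against 357 to 421 CPM). Of 12 tested trophoblast markers, a list that includes Eomes, 5 rose, led by Cdx2, Hand1 and Krt8 at 1.58, 0.75 and 0.50, and 3 fell, Krt7, Tead4 and Plet1 at -0.75, -0.64 and -0.57 (summed level 1779 to 1863 against 2255 to 2754 CPM). Prl3d1 was at 0 counts in all libraries, and Elf5 and Tpbpa had 7 and 2 counts in siCtrl and 10 and 2 in siRSL24D1. Of 15 tested fibroblast markers 6 rose, led by Lox, Acta2 and Tagln at 1.40, 1.32 and 0.82, and 3 fell, Pdgfrb, Col1a2 and Mmp2 at -0.52, -0.46 and -0.15 (summed level 906 to 924 against 1304 to 1508 CPM). Of the 20 stem cell markers 4 rose, led by Tbx3, Sall4 and Dppa2 at 0.80, 0.34 and 0.29, and 8 fell, led by Prdm14, Dppa3 and Tdgf1 at -0.77, -0.71 and -0.62. Their summed level was 2995 to 3119 CPM in siCtrl and 2762 to 2813 CPM in siRSL24D1. The number of stem cell markers that fell was 5 without siCtrl 2 or siRSL24D1 3, and that of endoderm markers 1 without any library but siRSL24D1 1. Sall4 did not pass without siCtrl 2, siRSL24D1 1 or siRSL24D1 3 (adjusted p = 0.0546 to 0.0584), Pdgfra without any 1 library but siRSL24D1 1 (0.0566 to 0.139), and Mmp2 without siCtrl 2 or any 1 siRSL24D1 library (0.0612 to 0.112). What part these changes have in those of the 10 markers was not tested.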

How the data were processed

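Total RNA of 6 libraries was sequenced, 3 siCtrl and 3 siRSL24D1, grouped by the siRNA label. The authors deposited a table of unscaled estimated counts per gene symbol. GRCm38 is the build named in the submitters' processing notes, which also list Salmon 0.14.1 and STAR 2.7.0f without their roles. Their annotation, filters and strand setting were not given in the sources used here. The 3 replicates of a group are called independent, and p-values measure the spread between them. Between 21.6% and 22.6% of a library's values were not whole (tolerance 1e-09); values were rounded, since the tests had been planned for counts.

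Genes were kept by filterByExpr (minimum count 10, minimum total 15), libraries scaled by TMM, and groups compared over all 15084 genes by the two-sided quasi-likelihood F test of edgeR 4.0.16 in R 4.3.3, with Benjamini-Hochberg adjustment over all genes and calls at an adjusted p under 0.05. The fit was tested on simulated data. Levels are TMM-scaled CPM, mean ± SD over 3 libraries, and length is that of the longest protein-coding transcript in GENCODE M21. Standard errors are the log2 fold change over the square root of F.

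The 10 genes and all lists were chosen with earlier results of these data known. Named by rule were the 10 markers, up to 3 called genes in each direction of each list (log2 fold changes only, for the lists of other cell types), the nearest tested protein-coding neighbours, Rsl24d1, Pou5f1, Nanog and Sox2. Alternatives were DESeq2 size factors, library totals, upper-quartile scaling, other filters, DESeq2 1.42.0, limma-voom (limma 3.58.1), the replicate number as a block, GC and length corrections, a stricter threshold, each library left out, and unrounded values.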

Additional observations from a re-analysis of the deposited data

How the results depend on the processing

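In all 20 alternatives the number of the 10 markers that rose was 6 and the number that fell was 0. Mixl1 ranged from 1.11 to 1.27 on the log2 scale, Kdr from 0.98 to 1.16, Wnt3 from 0.87 to 0.97, Evx1 from 0.72 to 0.86, Eomes from 0.39 to 0.47 and T from 0.33 to 0.42, with adjusted p of at most 0.0104. Gsc, Mesp1 and Tbx6 kept their sign and passed in none (adjusted p = 0.0651 to 0.964); Mesp1 was not tested when genes needed 1 CPM in 3 libraries. Lhx1 passed in none either, ranged from -0.21 to 0.24 when a library was left out, and turned to 0.24 without siCtrl 3 and to 0.08 without siRSL24D1 2; the cause was not tested. Of the other streak and mesoderm genes, 13 to 21 rose; 5 fell at an adjusted p under 0.01, a threshold that is stricter by construction, and 5 to 7 fell when a library was left out. Replicate numbers did not pair the samples: deviations of same-numbered libraries correlated at -0.42, 0.35 and 0.36, and siCtrl 1 and siCtrl 3 correlated best with another number. With the replicate number as a block, 6 markers rose and 0 fell, and 18 and 7 of the other streak and mesoderm genes; Wnt9b and Nkd1 lost their calls (adjusted p = 0.0616 and 0.0533). With a length correction 5 receptors and transducers and 2 other T-box genes fell. Of the homeobox relatives 5 rose with library totals, the 1 CPM filter or the length correction, and 1 fell with that filter. Of the endoderm markers 1 fell with library totals, and 3 rose and 1 fell in DESeq2. The unrounded values were tried after seeing the data. With 58 to 71 counts a group, Mesp1 is limited by depth.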
